A study of Mus musculus with 14 samples.

Results

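The renin-angiotensin and endothelin genes Agt, Ace, Agtr1a, Agtr2, Edn1, Edn3, Ece1, Ednra and Ednrb were followed in mouse left ventricle. These 9 genes were taken by name from the 49315 genes of the count table. After a filter on low counts, 8 of the 9 were among the 15292 genes tested, and Agtr2 was not. Poly(A)-selected RNA from WT mice and from HCN4F mice, knock-in animals that carry the Y527F substitution of the pacemaker channel HCN4 in exon 4, was sequenced after Sham surgery or transverse aortic constriction (TAC). TAC narrows the aortic arch, here calibrated on a 27-G needle, and puts the left ventricle under pressure overload. Male mice were operated at 10 to 12 weeks of age and hearts were taken 5 weeks later. The substitution is present in the whole animal, and the strain background is not given in the sources used here. There were 4 WT-Sham, 4 HCN4F-Sham, 2 WT-TAC (replicates 2 and 3) and 4 HCN4F-TAC libraries. Libraries are described as biological replicates.

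Both pathways make short vasoactive peptides by cutting a precursor and signal through G protein-coupled receptors. Angiotensinogen (Agt) is cut by renin to angiotensin I, and angiotensin-converting enzyme (Ace) turns that into angiotensin II, which acts on the receptors AT1 (Agtr1a and its rodent paralog Agtr1b) and AT2 (Agtr2). The endothelin precursors Edn1 and Edn3 are cut by endothelin-converting enzyme (Ece1), and the mature peptides bind the receptors ETA (Ednra) and ETB (Ednrb). ETA prefers endothelin-1 over endothelin-3, whereas ETB binds both alike. In the heart, angiotensin II and endothelin-1 are known for driving vasoconstriction, cardiomyocyte growth and fibrosis, while endothelin-3 is best known for its part in the development of neural crest cells.

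Edn3 was the member with the largest response to pressure overload. Its level rose 5.24-fold after TAC in WT and 5.60-fold in HCN4F hearts. Ace and Ednrb also rose after TAC in HCN4F hearts, by 1.55-fold and 1.50-fold. The other ligand genes, Edn1 and Agt, and the receptor genes Agtr1a and Ednra did not pass the test in either genotype, nor did Ece1. No member passed the test between genotypes. Here "rose" and "fell" stand for an adjusted p under 0.05 in edgeR's quasi-likelihood test, adjusted by the Benjamini-Hochberg method across the tested genes, and "called" for that with a log2 fold change above 1 or below -1.

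The promoters of the 3 genes that rose in HCN4F hearts are shown with that of Edn1, the endothelin ligand that did not, so that the start regions can be set side by side. They are RefSeq sequences on GRCm38.p6, from 250 bases before to 30 bases after the annotated start, at chr2:174760369-174760648 (plus strand) for Edn3, chr11:105967698-105967977 (plus strand) for Ace, chr14:103843672-103843951 (minus strand) for Ednrb and chr13:42301226-42301505 (plus strand) for Edn1. Capitals mark every match to a motif searched. For Ace the first of its 2 listed starts is shown. The Ednrb stretch lies inside the gene span of a second annotation, GENCODE M21 (103814625-103844402), so the start differs between the annotations.
Edn3: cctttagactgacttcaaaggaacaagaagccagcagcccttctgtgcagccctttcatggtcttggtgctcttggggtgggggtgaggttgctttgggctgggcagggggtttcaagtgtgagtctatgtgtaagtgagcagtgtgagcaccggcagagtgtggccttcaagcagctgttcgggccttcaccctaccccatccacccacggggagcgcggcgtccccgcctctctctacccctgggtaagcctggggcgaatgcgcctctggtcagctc
Ace: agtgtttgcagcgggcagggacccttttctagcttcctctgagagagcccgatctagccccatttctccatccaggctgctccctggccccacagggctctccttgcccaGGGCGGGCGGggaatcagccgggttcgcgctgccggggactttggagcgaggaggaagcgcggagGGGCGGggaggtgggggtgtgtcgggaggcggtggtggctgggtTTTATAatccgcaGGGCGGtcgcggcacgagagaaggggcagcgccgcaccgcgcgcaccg
Ednrb: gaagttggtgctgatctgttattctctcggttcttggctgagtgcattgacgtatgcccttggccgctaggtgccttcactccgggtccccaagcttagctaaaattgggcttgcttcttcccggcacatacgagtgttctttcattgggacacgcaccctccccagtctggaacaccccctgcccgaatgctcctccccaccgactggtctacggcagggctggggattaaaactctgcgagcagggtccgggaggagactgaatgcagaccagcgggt
Edn1: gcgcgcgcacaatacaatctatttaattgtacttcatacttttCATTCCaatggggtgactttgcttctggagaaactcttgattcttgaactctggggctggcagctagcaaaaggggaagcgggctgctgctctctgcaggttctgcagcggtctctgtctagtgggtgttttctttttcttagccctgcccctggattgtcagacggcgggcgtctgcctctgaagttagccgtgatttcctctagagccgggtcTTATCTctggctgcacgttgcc
Motifs were searched on both strands over 300 bases, up to 50 after the start, in all 32851 promoters of the table. The share of promoters with a match was 5.20% for the AP-1 site TGAGTCA, 1.79% for the cAMP response element TGACGTCA, 11.2% for the GATA site AGATAA, 13.6% for the TATA box TATAAA, 14.7% for the MCAT element GGAATG, 23.4% for the NFAT core GGAAAA, 7.15% for the E-box CACGTG and 35.7% for the GC box GGGCGG. The Ace window held 4 GC boxes, starting at -140, -136, -75 and -18 from the start, of which the first 2 overlap, and a TATA box on the opposite strand at -31. In Edn1 an MCAT element at -207 and a GATA site at +9 were found, both on the opposite strand. The Edn3 and Ednrb windows held none of the 8 motifs, so the 3 genes that rose in HCN4F hearts shared no match. The windows of Ednra, which did not pass the test, and of the untested Agtr2 also held none. The GC content was 61.0% in Edn3, 69.7% in Ace, 58.7% in Ednrb and 51.3% in Edn1, against a median of 52.7% over all promoters. A match is only a description of the letters. Of the 9 members, 8 had an entry in this table and Agtr1a had none.

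All levels below are CPM, counts scaled by TMM to 1 M counts per library, and libraries are given in the order of their replicate numbers. Depth was 22309914 to 35210939 counts per library with a median of 27676182. A floor of 3 counts, the limit that a count of 0 allows, was 0.0859 to 0.137 CPM and covers counting error only. The substitution is not visible in gene counts, so these counts do not check the genotype. Cardiomyocyte markers were abundant, with Myh6 at a group mean of 24090 to 31910 CPM. HCN4F-TAC replicate 2 stood apart with a summed level of 6 atrial markers of 70.8 CPM, against 22.3 to 44.8 CPM in the other 13 libraries. HCN4F-Sham replicate 1 had the lowest summed level of 6 endothelial markers, 697.1 CPM, against 784.5 to 1265 CPM in the other 13 libraries. Of all libraries it was also the lowest for Ednrb and Ece1 and the highest for Agt and Edn1. The part of its make-up in these values was not tested. In tissue RNA, fewer cells of a type and less RNA per cell cannot be told apart.

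Levels of different members were compared per kilobase of exon. Ece1 had the highest mean over all 14 libraries with 22.5 ± 2.54 CPM per kb (SD), followed by Ace with 17.3 ± 4.59. The ranges of these enzyme genes overlapped. The receptor genes came next, with Agtr1a at 8.13 ± 1.40, Ednra at 7.27 ± 1.58 and Ednrb at 6.24 ± 1.69 CPM per kb, also with overlapping ranges. The ligand genes had the lowest means over all libraries of those tested, with Edn1 at 2.57 ± 0.698, Edn3 at 2.33 ± 2.14 and Agt at 2.28 ± 0.846 CPM per kb. Among the ligand genes Edn3 had the widest range, from 0.485 to 6.42 CPM per kb. In WT-Sham hearts it was at 0.565 ± 0.0916 CPM per kb (SD, n = 4) and in HCN4F-TAC hearts at 5.20 ± 1.12 (SD, n = 4), so its place in this order depended on the group, and in HCN4F-TAC replicate 4 it lay above Ednra (6.42 against 6.12 CPM per kb).

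**Figure D1:**
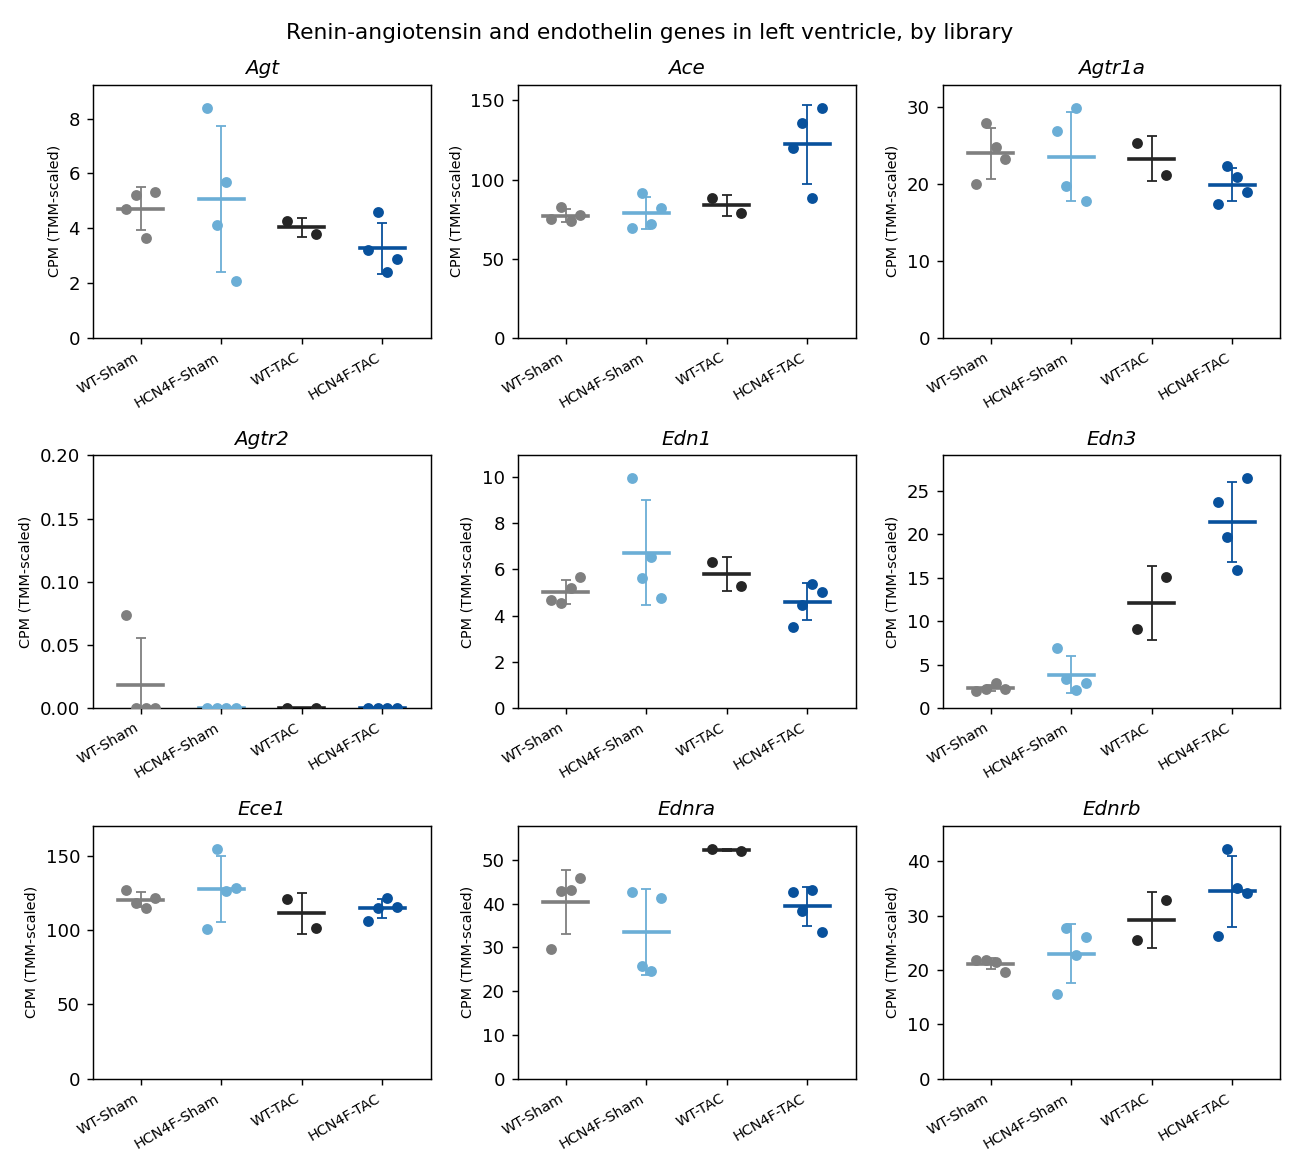
Level of each member in every library, in CPM on linear axes that start at 0, by group. Points are libraries, horizontal lines group means and bars ± 1 SD (n = 4, 4, 2 and 4). Edn3 lay at 2.00 to 6.93 CPM in the Sham libraries and at 9.12 to 26.4 CPM after TAC. The Agtr2 axis ends at 0.2 CPM, and its 1 point above 0 stands for 2 counts.

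Endothelin-3 is encoded by Edn3 (ENSMUSG00000027524), on the plus strand of chromosome 2 at 174760619-174784042 (GRCm38). In WT-Sham hearts Edn3 was at 2.00, 2.21, 2.87 and 2.22 CPM. The HCN4F-Sham libraries had 6.93, 3.38, 2.13 and 2.87 CPM. After TAC it was at 9.12 and 15.1 CPM in WT and at 23.6, 19.6, 15.9 and 26.4 CPM in HCN4F hearts. Every TAC library thus lay above every Sham library of either genotype, and the 4 HCN4F-TAC libraries lay above both WT-TAC libraries. Replicate 1 stood out as the highest HCN4F-Sham library. The group means were 2.32 ± 0.377 in WT-Sham, 3.83 ± 2.13 in HCN4F-Sham, 12.1 ± 4.22 in WT-TAC (n = 2) and 21.4 ± 4.61 CPM in HCN4F-TAC (SD, n = 4 for the others).

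The log2 fold change of Edn3 after TAC was 2.39 in WT (SE, the standard error, 0.36, 95% confidence interval 1.60 to 3.18, adjusted p = 0.00696 in edgeR's quasi-likelihood test). In HCN4F hearts it was 2.49 (SE 0.31, 95% confidence interval 1.82 to 3.15, adjusted p = 0.000304 in the same edgeR test). The difference between these responses, the genotype by surgery interaction, was 0.10 on the log2 scale with a 95% confidence interval of -0.96 to 1.15 (adjusted p = 0.972, edgeR). Without WT-TAC replicate 3 the log2 fold change in WT was 1.97, and the call was lost (adjusted p = 0.161, edgeR). That fit holds 1 WT-TAC library, which is assumed to vary like the other groups. The WT call of Edn3 was also lost with glmTreat, which tests against a log2 fold change of 1. In HCN4F hearts the adjusted p was at most 0.00464 over all 23 alternatives, which changed the tool, the filter, the scaling or the libraries in the fit.

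Between genotypes, Edn3 was higher by 0.71 on the log2 scale in HCN4F-Sham hearts than in WT ones (SE 0.34, adjusted p = 0.349, edgeR). Without HCN4F-Sham replicate 1 this value was 0.26. After TAC the value was 0.81 (SE 0.35, 95% confidence interval 0.06 to 1.56, adjusted p = 0.366, edgeR). In spite of no overlap between the libraries, the test was passed in only 1 of 23 alternatives, DESeq2 fitted on the compared groups (adjusted p = 0.0464), and the adjusted p ranged up to 0.886. Without WT-TAC replicate 2 the value was 0.50 and without WT-TAC replicate 3 it was 1.23, each with 1 WT-TAC library left.

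Endothelin-1, the main endothelin of vascular endothelium, is encoded by Edn1 (ENSMUSG00000021367, chromosome 13, 42301476-42307990, plus strand). Its levels were 4.66, 4.53, 5.20 and 5.65 CPM in WT-Sham and 9.94, 5.61, 6.54 and 4.77 CPM in HCN4F-Sham hearts. After TAC they were 6.33 and 5.30 CPM in WT and 3.53, 4.48, 5.37 and 5.0 CPM in HCN4F hearts. The groups overlapped, and HCN4F-Sham replicate 1, which was also the highest Sham library for Edn3, was the highest of all.

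In WT the log2 fold change of Edn1 after TAC was 0.21 (SE 0.23, adjusted p = 0.641, edgeR's quasi-likelihood test). In HCN4F hearts it was -0.54 (SE 0.19, 95% confidence interval -0.95 to -0.14, adjusted p = 0.0729, edgeR), and the adjusted p passed in 3 of 23 alternatives, with a range of 0.0257 to 0.226. The lowest was without HCN4F-Sham replicate 4 (-0.68) and the highest without HCN4F-Sham replicate 1 (-0.29). The interaction was -0.75 on the log2 scale (SE 0.30, adjusted p = 0.488, edgeR), and the difference between the Sham groups 0.42 (SE 0.19, adjusted p = 0.311, edgeR), or 0.17 without HCN4F-Sham replicate 1.

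The ratio of Edn3 to Edn1, per kilobase of exon within each library, was computed after their values were seen and is given as a description with no test. It was 0.242 ± 0.0362 in WT-Sham and 0.289 ± 0.0833 in HCN4F-Sham hearts (SD, n = 4 each). After TAC it was 0.750 and 1.48 in the WT libraries and 3.49, 2.28, 1.54 and 2.74 in the HCN4F libraries. Thus Edn1 counts per kb exceeded those of Edn3 in all 8 Sham libraries, and Edn3 exceeded Edn1 in 5 of the 6 TAC libraries.

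**Figure D2:**
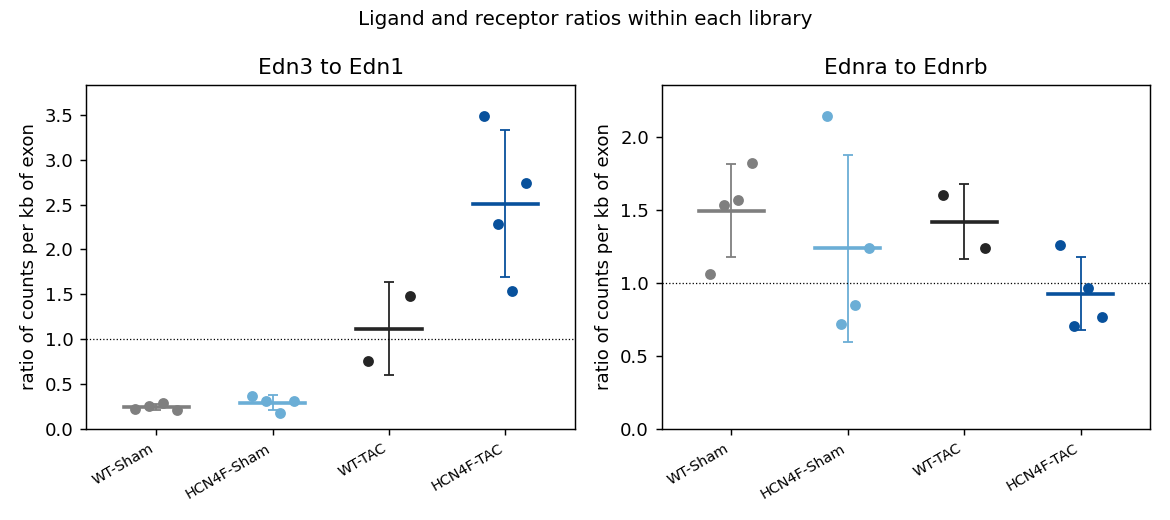
Ratio of Edn3 to Edn1 and of Ednra to Ednrb, each as counts per kb of exon within a library, by group. Points are libraries, lines group means and bars ± 1 SD, and the dotted line marks equal levels. For Edn3 to Edn1 the 8 Sham libraries sit between 0.169 and 0.362 and the HCN4F-TAC libraries between 1.54 and 3.49.

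Angiotensinogen, the single precursor of the angiotensins, is made from Agt (ENSMUSG00000031980, chromosome 8, 124556534-124569706, minus strand). Its mean was 4.72 ± 0.775 CPM in WT-Sham, 5.07 ± 2.66 in HCN4F-Sham, 4.03 ± 0.349 in WT-TAC (n = 2) and 3.27 ± 0.933 CPM in HCN4F-TAC hearts (SD, n = 4 for the others). The HCN4F-Sham libraries spread widest, at 8.39, 4.11, 5.68 and 2.08 CPM. After TAC the log2 fold change was -0.24 in WT (SE 0.40, adjusted p = 0.772) and -0.62 in HCN4F hearts (SE 0.33, adjusted p = 0.241, edgeR's quasi-likelihood test for both). The latter passed only without HCN4F-Sham replicate 4, the lowest of its group, where it was -0.89 (adjusted p = 0.0261, edgeR). Without HCN4F-Sham replicate 1, the highest, it was -0.26 (adjusted p = 0.593, edgeR).

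Among the processing enzymes, Ace (ENSMUSG00000020681, chromosome 11, 105967945-105989964, plus strand), which also degrades bradykinin, was at 74.8, 82.6, 73.7 and 77.5 CPM in WT-Sham hearts. It was at 69.6, 91.7, 72.1 and 81.8 CPM in HCN4F-Sham and at 88.2 and 79.1 CPM in WT-TAC hearts. The HCN4F-TAC libraries had 120, 136, 88.2 and 145 CPM. Of these, 3 lay above every other library, and replicate 3 lay below HCN4F-Sham replicate 2. The exons of Ace share 5.58% of their bases with Gm11651 on the opposite strand, and whether counting used strand is not given in the sources used here.

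Ace rose by 0.63 on the log2 scale after TAC in HCN4F hearts (SE 0.13, 95% confidence interval 0.37 to 0.90, adjusted p = 0.00372 in edgeR's quasi-likelihood test). The change passed in all 23 alternatives, with adjusted p from 4.91e-05 to 0.0260. In WT the log2 fold change was 0.12 (SE 0.15, 95% confidence interval -0.21 to 0.44, adjusted p = 0.700, edgeR). The difference between the responses was 0.52 (SE 0.20, 95% confidence interval 0.09 to 0.94), with an unadjusted p of 0.0198 and an adjusted p of 0.475 in edgeR, so a difference between genotypes was not shown.

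In Sham hearts Ace had a log2 difference of 0.03 between HCN4F and WT (95% confidence interval -0.24 to 0.30, adjusted p = 0.934, edgeR). After TAC it was 0.55 (SE 0.16, adjusted p = 0.170, edgeR). It passed in 2 of 23 alternatives, without HCN4F-TAC replicate 3 (0.68, adjusted p = 0.00601) and without HCN4F-TAC replicates 2 and 3 together (0.65, adjusted p = 0.0306, edgeR for both).

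Ece1 (ENSMUSG00000057530, chromosome 4, 137862237-137965229, plus strand), the membrane protease that releases mature endothelins, stayed within 101 to 155 CPM in all 14 libraries. Its group means were 120 ± 5.26 in WT-Sham, 127 ± 22.1 in HCN4F-Sham, 111 ± 13.9 in WT-TAC (n = 2) and 115 ± 6.21 CPM in HCN4F-TAC hearts (SD, n = 4 for the others). The log2 fold change after TAC was -0.11 in WT, with a 95% confidence interval of -0.38 to 0.15, and -0.15 in HCN4F hearts, with one of -0.37 to 0.06. Neither passed (adjusted p = 0.629 and 0.347, edgeR's quasi-likelihood test).

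The ETB receptor gene Ednrb (ENSMUSG00000022122, chromosome 14, 103814625-103844402, minus strand) was at 21.8, 21.8, 21.4 and 19.6 CPM in WT-Sham and at 15.5, 27.8, 22.7 and 26.0 CPM in HCN4F-Sham hearts. After TAC it was at 25.6 and 32.8 CPM in WT and at 26.3, 42.2, 35 and 34.1 CPM in HCN4F hearts. Both WT-TAC libraries lay above the WT-Sham libraries. In HCN4F hearts 3 of the 4 TAC libraries lay above all Sham libraries, replicate 2 highest, and replicate 1 fell within the Sham range.

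Ednrb rose by 0.58 on the log2 scale after TAC in HCN4F hearts (SE 0.16, 95% confidence interval 0.24 to 0.93, adjusted p = 0.0278, edgeR's quasi-likelihood test). The test was no longer passed in 6 of 23 alternatives. Among these were leaving out HCN4F-TAC replicate 2, the library with the high atrial markers (0.47, adjusted p = 0.102), HCN4F-TAC replicate 4 (0.59, adjusted p = 0.0557) or HCN4F-Sham replicate 3 (0.57, adjusted p = 0.0608, edgeR for all). The smallest value was 0.39, without HCN4F-TAC replicates 2 and 3 together (adjusted p = 0.238, edgeR). In WT the log2 fold change was 0.47 (SE 0.20, adjusted p = 0.179, edgeR). It passed in edgeR and DESeq2 fitted on the compared groups (adjusted p = 0.0127 and 0.00184). The interaction was 0.12 with a 95% confidence interval of -0.44 to 0.67 (adjusted p = 0.926, edgeR).

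For Ednra (ENSMUSG00000031616, chromosome 8, 77663031-77724464, minus strand), the ETA receptor of smooth muscle and cardiomyocytes, the levels were 29.5, 42.8, 43.0 and 45.7 CPM in WT-Sham and 42.7, 25.7, 24.6 and 41.3 CPM in HCN4F-Sham hearts. The WT-TAC libraries had 52.5 and 52.1 CPM and the HCN4F-TAC libraries 42.5, 38.3, 43.2 and 33.5 CPM. The WT-TAC libraries were the highest of all and overlapped neither WT-Sham nor HCN4F-TAC. The log2 fold change after TAC was 0.38 in WT (SE 0.22, adjusted p = 0.338) and 0.23 in HCN4F hearts (SE 0.18, adjusted p = 0.446). Between HCN4F and WT after TAC it was -0.41 (SE 0.22, adjusted p = 0.474, edgeR's quasi-likelihood test for all 3). Only the WT value passed in an alternative, DESeq2 fitted on the compared groups (adjusted p = 0.0422).

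As a description with no test, Ednra exceeded Ednrb per kilobase of exon in all 4 WT-Sham and both WT-TAC libraries, with mean ratios of 1.49 ± 0.319 and 1.42 ± 0.258 (SD, n = 4 and 2). In HCN4F-TAC hearts the ratio was 0.923 ± 0.250 (SD, n = 4), below 1 in 3 of 4 libraries. The HCN4F-Sham libraries ranged from 0.720 to 2.14. The place of the ratio above or below 1 rests on merged exon lengths of 5476 bases for Ednra and 4266 for Ednrb. Without this scaling, the HCN4F-TAC libraries held 1026, 1164, 1223 and 824 counts of Ednra, and 634, 1283, 992 and 839 of Ednrb.

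Of the angiotensin II receptor genes, only Agtr1a passed the filter on low counts. Agtr1a (ENSMUSG00000049115, chromosome 13, 30336441-30382867, plus strand) was at 17.4 to 29.9 CPM over all libraries, with group means of 24.0 ± 3.33 in WT-Sham, 23.6 ± 5.79 in HCN4F-Sham, 23.3 ± 2.96 in WT-TAC (n = 2) and 19.9 ± 2.17 CPM in HCN4F-TAC hearts (SD, n = 4 for the others). The log2 fold change after TAC was -0.04 in WT, with a 95% confidence interval of -0.44 to 0.35, and -0.24 in HCN4F hearts, with one of -0.56 to 0.08 (adjusted p = 0.920 and 0.321, edgeR's quasi-likelihood test). Its close paralog Agtr1b had 1 count over all 14 libraries. How counting dealt with reads common to both is not given in the sources used here, so the split between these paralogs is uncertain. Agtr2 (ENSMUSG00000068122, chromosome X, 21484544-21489164, plus strand) had 2 counts in WT-Sham replicate 1 and none elsewhere, under the floor of 3 counts per library, so no fold is given.

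**Figure D3:**
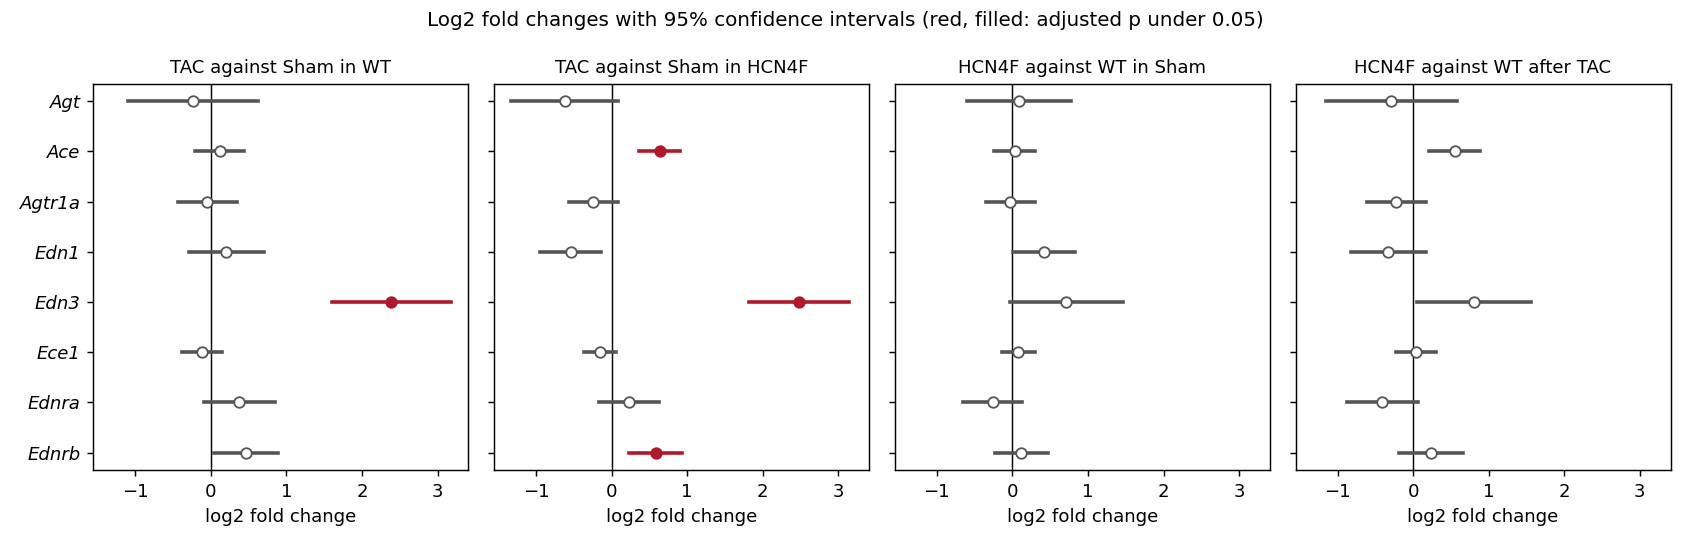
Log2 fold changes of the 8 tested members with 95% confidence intervals in the comparisons of TAC with Sham and of HCN4F with WT. Red, filled points have an adjusted p under 0.05 in edgeR. Edn3 stands at 2.39 in WT and 2.49 in HCN4F hearts, with Ace at 0.63 and Ednrb at 0.58 the other filled points.

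Over the members, 1 of 8 was called after TAC in WT, against 0.706% of all tested genes, and the same 1 passed on the adjusted p alone, against 4.54% (2.92% higher and 1.62% lower). The libraries did not overlap for 3 of 8 members, Edn3, Ednra and Ednrb, against 39.2% of all tested genes. In HCN4F hearts 1 of 8 was called, against 2.75%, and 3 of 8 rose, against 7.20% of tested genes that were higher, while none fell, against 6.41%. Edn3 alone had no overlap, against 15.1%. The median log2 fold change of the members was 0.16 in WT and 0.04 in HCN4F hearts, against -0.02 and -0.01 over all tested genes.

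Between genotypes no member was called by edgeR in Sham hearts, where 0.209% of tested genes were. None passed on the adjusted p alone, against 0.471%, none was without overlap between the libraries, against 8.56%, and 1 member (Edn1) had an unadjusted p under 0.05, against 15.2%. After TAC none was called, against 0.0719%, or passed on the adjusted p alone, against 0.111%, and 2 (Ace and Edn3) had an unadjusted p under 0.05, against 12.4%. DESeq2 also called none in either comparison. Libraries of the TAC groups did not overlap for 2 of 8 members, Edn3 and Ednra, against 22.2%. For the interaction no member passed in edgeR or DESeq2 and 2 (Ace and Edn1) had an unadjusted p under 0.05, as did 9.27% of all tested genes.

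Further genes of both pathways were taken from a list of 27, of which 26 were in the table and 16 were tested. Several steps known mainly from other organs were at or near 0 counts. Ren1 (renin) had 1 count over all 14 libraries, Cyp11b2 (aldosterone synthase) and Mrgprd (a receptor for alamandine) none, Ctsg (cathepsin G) 3, Edn2 (the third endothelin) 4, Kel 4, Ecel1 10, Mmel1 48 and Hsd11b2 54. Mmel1 and Hsd11b2 reached 9 and 8 counts in a library, above the floor of 3 counts, but did not pass the filter.

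After TAC in WT, 1 of the 16 rose and none fell, against 2.92% and 1.62% of all tested genes. Lnpep, which encodes the receptor for angiotensin IV, had a mean of 39.9 CPM in WT-Sham and 60.9 CPM in WT-TAC hearts. The rise was 0.61 on the log2 scale (SE 0.14, adjusted p = 0.0273, edgeR's quasi-likelihood test). The test was no longer passed in 5 of 23 alternatives. They included leaving out either WT-TAC library (log2 fold changes of 0.59 and 0.64, with 1 WT-TAC library left) or WT-Sham replicate 1 or 4 (0.55 and 0.57). In HCN4F hearts the log2 fold change of Lnpep was 0.01, and the HCN4F-Sham libraries had 43.3 to 67.0 CPM.

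In HCN4F hearts 2 of the 16 rose and 2 fell after TAC, against 7.20% and 6.41% of all tested genes. Those that fell encode proteases. Cma1, a mast cell chymase gene, was at 1.39, 1.19, 1.05 and 0.815 CPM in HCN4F-Sham and at 0.622, 0.527, 0.106 and 0.447 CPM in HCN4F-TAC hearts. The TAC libraries were all lower, with a log2 fold change of -1.38 (SE 0.38, adjusted p = 0.0222, edgeR). The call was lost in 2 of 22 alternatives, without HCN4F-Sham replicate 1 (-1.25, adjusted p = 0.0548) and without HCN4F-TAC replicates 2 and 3 together (-1.04, adjusted p = 0.112, edgeR for both). None of the 4 tested of 6 markers of mast cells, which store chymase, passed, and their sum was 8.24 to 12.5 CPM in HCN4F-Sham and 9.15 to 10.9 CPM in HCN4F-TAC hearts. Most of that sum was Kit, with means of 6.65 and 7.0 CPM. The log2 fold changes of these markers were 0.07 for Kit, 0.20 for Hdc, -0.53 for Cpa3 and -0.91 for Tpsb2 (adjusted p = 0.852, 0.620, 0.451 and 0.0709, edgeR). Mcpt4, another mast cell protease gene, of the pathway list, was chosen after its values were seen, and its log2 fold change was -0.87 (adjusted p = 0.0512, edgeR). For Tpsb2 and Mcpt4 all TAC libraries lay below all Sham libraries, while for Kit, Hdc and Cpa3 they overlapped. The markers Ms4a2 and Fcer1a had at most 3 counts in any library. The part of mast cells in the Cma1 value was not tested.

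Mme, which encodes neprilysin, a protease that degrades endothelins and natriuretic peptides, fell from a mean of 8.35 to 4.94 CPM, with a log2 fold change of -0.76 (SE 0.21, adjusted p = 0.0245, edgeR's quasi-likelihood test). Mme no longer passed in 4 of 23 alternatives, among them leaving out HCN4F-TAC replicate 1 (-0.67, adjusted p = 0.0721, edgeR) or HCN4F-Sham replicate 3 (-0.69, adjusted p = 0.0587, edgeR). Those that rose were the cytosolic peptidases Prep, by 0.37 (43.8 to 56.7 CPM, adjusted p = 0.00267), and Dpp3, by 0.38 on the log2 scale (21 to 27.3 CPM, adjusted p = 0.00463, edgeR for both). The median over the 16 was -0.09 in WT and -0.01 in HCN4F hearts.

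AT1, ETA and ETB couple to Gq and partly to G12/13 proteins, and 28 of 29 listed genes of these signals were tested. In WT, Arhgef12, an exchange factor that links G12/13 to RhoA, rose by 0.50 (205 to 289.1 CPM, adjusted p = 0.0165), and Rgs4, a brake on Gq signals, fell by 0.50 on the log2 scale (21.6 to 15.3 CPM, adjusted p = 0.0338, edgeR's quasi-likelihood test for both). Arhgef12 no longer passed in 2 of 23 alternatives, without WT-Sham replicate 4 (0.45) and without WT-TAC replicate 3 (0.38). Rgs4 no longer passed in 6 of 23, which included leaving out WT-Sham replicate 1, 2 or 4, WT-TAC replicate 2 (-0.56) or WT-TAC replicate 3 (-0.44, adjusted p = 0.308, edgeR). Without either WT-TAC library, 1 is left in the group. In HCN4F hearts 4 of the 28 rose and 1 fell, against 7.20% and 6.41% of all tested genes. Those that rose were the protein kinase C genes Prkca (0.53, 25.4 to 36.5 CPM) and Prkcd (0.49, 12.4 to 17.4 CPM), the receptor kinase gene Grk5 (0.42, 29.7 to 39.6 CPM) and Arhgef12 (0.27, adjusted p = 0.0456, edgeR, not passed in 13 of 23 alternatives). Grk5 no longer passed in 1 of 23, without HCN4F-TAC replicate 4 (0.37, adjusted p = 0.0525, edgeR).

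Rgs2, which encodes a GTPase-activating protein selective for Gq, fell after TAC in HCN4F hearts. It was at 22.9, 21.3, 37.2 and 29.2 CPM in HCN4F-Sham and at 13.9, 14.2, 18.8 and 11.5 CPM in HCN4F-TAC hearts. All TAC libraries were lower, with a log2 fold change of -0.92 (SE 0.17, adjusted p = 0.00263, edgeR's quasi-likelihood test). In WT it was -0.64 (SE 0.21, adjusted p = 0.0876, edgeR). The median over the 28 was 0.01 in WT and 0.03 in HCN4F hearts. No gene of either list passed in a comparison between genotypes.

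**Figure D4:**
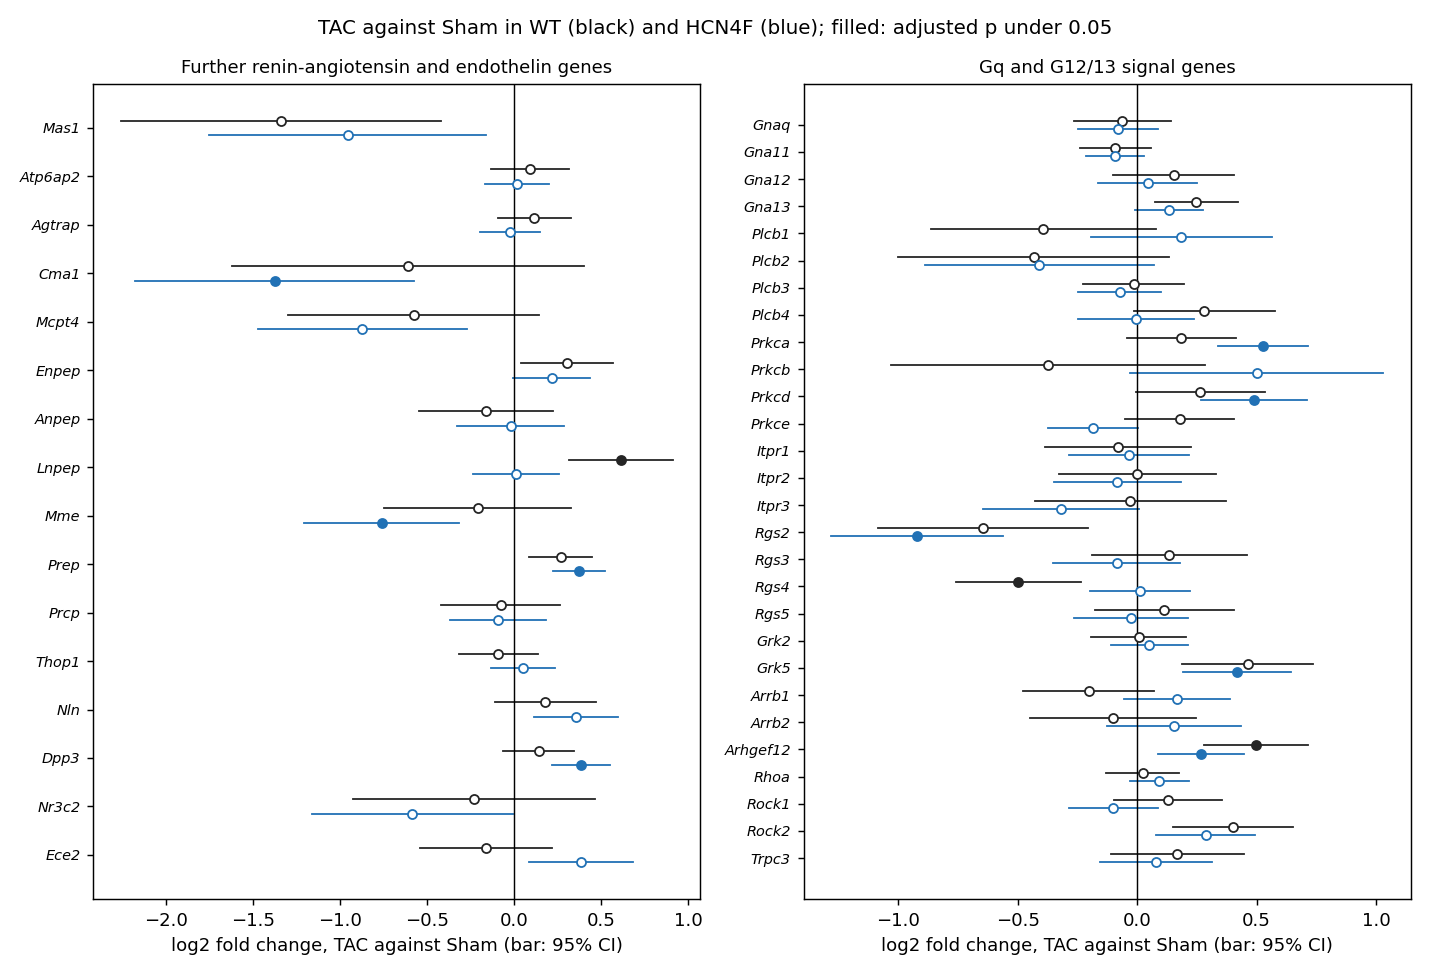
Log2 fold changes after TAC with 95% confidence intervals for the 16 tested further renin-angiotensin and endothelin genes and the 28 tested Gq and G12/13 signal genes, in WT (black) and HCN4F hearts (blue). Filled points have an adjusted p under 0.05 in edgeR. Most points lie near 0, and the lowest filled ones are Cma1 at -1.38 and Rgs2 at -0.92.

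Edn1, Ece1, Ace and Ednrb are known from endothelium, and markers of the cell types were set beside them. None of the 6 endothelial markers passed in any comparison. Their summed level was 697.1 to 1265 CPM in HCN4F-Sham and 903.9 to 966.4 CPM in HCN4F-TAC hearts. The lowest of these, HCN4F-Sham replicate 1, was also the lowest of all libraries for Ednrb and Ece1. Of the 6 fibroblast markers, Col1a1 (1.14) and Lum (0.51 on the log2 scale) rose after TAC in HCN4F hearts. The fibroblast sum was 512 to 645.5 CPM in HCN4F-Sham hearts and 744.3, 875.7, 588 and 848.2 CPM in HCN4F-TAC hearts. It was lowest in HCN4F-TAC replicate 3, as was Ace. In WT-TAC the sum was 466.2 and 534.1 CPM, within or below the 530.5 to 551.6 CPM of WT-Sham. The part of these cells in the Ace values was not tested.

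Of the 6 cardiomyocyte markers, 3 fell and 1 rose after TAC in HCN4F hearts, and 2 fell and 1 rose in WT. Their sum was 46350 to 50210 CPM in HCN4F-Sham and 36070 to 44030 CPM in HCN4F-TAC hearts. Of the 5 tested of 6 Schwann cell and neuron markers, 4 fell in HCN4F hearts, and their sum was 7.23 to 14.5 CPM in HCN4F-Sham and 3.99 to 6.30 CPM in HCN4F-TAC hearts. Smooth muscle, pericyte and macrophage markers did not pass in these comparisons. In HCN4F hearts the 1 tested of 6 adipocyte markers fell, the 1 tested of 6 lymphocyte markers rose, and 1 of the 4 tested of 6 atrial markers rose, with sums of at most 1.09 CPM for adipocyte and 3.26 CPM for lymphocyte markers in any library. In WT 1 fibroblast marker and 1 Schwann cell and neuron marker fell. Their part in the results was not tested.

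The genes most alike to each member were found by Pearson's r of log2 CPM over the 14 libraries, which share group and surgery, so the values are descriptive. For Edn3 they were Itga5 (r = 0.98), Tnfrsf12a (0.97) and Homer2 (0.96). Around the group means, the correlation with Edn3 was 0.69, 0.76 and 0.65. Ace was most like the collagen gene Col1a2 (r = 0.97), the proteoglycan gene Bgn (0.96) and Svep1 (0.96), and around the group means these values were 0.92, 0.89 and 0.90. For Ednrb they were Dlg5 (0.93), Itga6 (0.93) and Dnajc14 (0.92).

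For the members that did not pass, 3 genes each were found in the same way. For Edn1 they were Cited2 (r = 0.88), Rab11b (0.86) and Magt1 (0.83). Agt was most like Rpp30 (0.92), Rbmx2 (0.90) and Rabepk (0.86), and Agtr1a most like Slc9a2 (0.87), Adam11 (0.86) and Gja3 (0.83). Ednra was most like Glt28d2 (0.95), Agpat5 (0.89) and Snx16 (0.88), and Ece1 most like Sema3g (0.92), Itpr3 (0.88) and Tmem44 (0.88). Between members, Edn3 and Ace had r = 0.74 over the 14 libraries and 0.07 around the group means. Agt, Agtr1a and Edn1 had r of 0.59 to 0.72 with each other, and 0.59 to 0.66 around the group means. HCN4F-Sham replicate 1 was the highest of the 14 libraries for both Agt and Edn1, and these correlations were not computed without it.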

How the data were processed

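Left ventricular RNA, poly(A)-selected, was sequenced on an Illumina platform. The authors deposited raw counts of reads per gene with no normalization. The submitters' processing notes name the build GRCm38, while the aligner, counting program, annotation and use of strand are not given in the sources used here. The 14 libraries were grouped by their labels, and 2 further columns that match no sample here were not used. The study describes 16 samples.

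Counts were TMM-scaled, filtered with filterByExpr and fitted together, 1 mean per group, in edgeR 4.0.16 (R 4.3.3), robust quasi-likelihood test, Benjamini-Hochberg adjustment over 15292 genes. The study itself used DESeq2 with the same threshold. Standard errors are the log2 fold change over the root of the F statistic. Per-library log2 CPM used a prior count of 2. Gene positions and exon lengths are from GENCODE M21 on GRCm38, in which 99.3% of gene IDs were found.

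Named were all members and the genes of the 2 pathway lists with an adjusted p under 0.05. Further renin-angiotensin and endothelin genes left out by the filter on low counts were also named. For each member tested, the 3 protein genes with the highest correlation were named. The members and lists were chosen with earlier results of these data known. An item taken off a list is not reported here.

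Alternatives were DESeq2 1.42.0, size factors from DESeq2, fits on the compared groups, other filters, non-robust estimation, a replicate block, other call rules and leaving out each library. Leaving out HCN4F-TAC replicates 2 and 3 together was added after seeing the data. The scripts were tested on simulated data. Plots used matplotlib 3.10.9 (Python 3.11.15).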

Additional observations from a re-analysis of the deposited data

Results flagged for a closer look

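Of 25 pairs of a member and a group of 4 libraries, 1 had a library far from the others. Agtr2 was at 0.0739 CPM in WT-Sham replicate 1, which stands for 2 counts, and at 0 in the other WT-Sham libraries. With all other libraries of the group at 0, any count gives such a gap. The value lies under the floor of 3 counts.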

How the results depend on the processing

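There were 904 alternative values for the 40 log2 fold changes of members. Of these, 862 kept direction and side of the threshold, 7 no longer passed, 10 newly passed and 25 changed sign. Most of the 862 belong to changes that had not passed in the main fit, so they say little about those that had. The 7 losses were 1 of 23 alternatives for Edn3 in WT and 6 of 23 for Ednrb in HCN4F hearts. Edn3 and Ace kept passing in all 23 for HCN4F hearts. WT-TAC has 2 libraries, and without either of them 1 library stands for the group. On the adjusted p alone, 3 members were called after TAC in HCN4F hearts. With glmTreat against a log2 fold change of 1, 0 were called in WT. Leaving out a library gave 0 to 1 called member in WT (0 without WT-TAC replicate 3). Over all genes, calls after TAC in WT numbered 108, but 192 in edgeR on the compared groups and 68 with the replicate block. In HCN4F hearts they were 420, but 260 at a mean CPM of at least 1. Between the TAC groups they were 11, but 87 in DESeq2 on all groups. Such counts move the shares of all genes given beside the members, and the cause was not tested.

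The labels do not say whether replicate numbers pair the libraries, and the correlations that follow cannot exclude a shared batch. Deviations of 18 same-number pairs correlated at -0.12 to 0.16 (2 over 0.1), and 5 of 14 libraries correlated best with their own number. With the block, Lnpep and Rgs4 no longer passed in WT (adjusted p = 0.0651 and 0.0968, edgeR), 1 member was called in WT and 1 in HCN4F hearts, and the interaction of Edn3 became -0.0345 and that of Ece1 0.0273. Without HCN4F-TAC replicates 2 and 3, Ece1 between the TAC groups became -0.0152 and the Ednrb interaction -0.10.

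Values near 0 changed sign when 1 library was left out. Their ranges were -0.18 to 0.083 for Agtr1a and -0.25 to 0.0093 for Ece1 after TAC in WT. Between the Sham groups they were -0.27 to 0.36 for Agt, -0.0495 to 0.0855 for Ace, -0.16 to 0.0918 for Agtr1a and -0.0242 to 0.18 for Ece1, and between the TAC groups -0.0802 to 0.18 for Ece1. For the interaction they were -0.21 to 0.55 for Edn3, -0.16 to 0.0933 for Ece1 and -0.0525 to 0.31 for Ednrb.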
